A study of Schizosaccharomyces pombe 972h- with 4 samples.

Results

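Cytochrome c and a gene of its maturation were followed on 4 expression arrays of fission yeast (Schizosaccharomyces pombe). The members were cyc1 (SPCC191.07, chromosome III), which encodes cytochrome c, and cyc2 (SPAC17H9.12c, chromosome I), 2 of the 4997 targets on the array. Each was found by its systematic name in the gene tables that accompany the study and was named through the RefSeq table of assembly ASM294v3. The place of cyc2 on the array was known only from lists of genes that the study had chosen by their hypoxia ratios on these same arrays, so its low ratio is a description and supports nothing. The annotation of cyc2 on the array gives similarity to a budding yeast NADH-cytochrome b5 reductase and names no heme lyase. The RefSeq table lists cyc3 and cyt2 as genes apart from cyc2, and neither was among the named targets.

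Cytochrome c is a small heme protein of the space between the mitochondrial membranes, where it carries electrons from the bc1 complex to cytochrome c oxidase, the enzyme that passes them to oxygen. The protein enters the mitochondrion without its heme, which a heme lyase then attaches. In budding yeast that lyase is Cyc3, and Cyc2 is a mitochondrial flavoprotein that acts with it. Respiration and heme synthesis both consume oxygen, and genes of the respiratory chain are known to be expressed at lower levels in many yeasts when oxygen is scarce.

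The arrays compared the wild type strain (wt) with a strain lacking Ofd2 (Ofd2Δ, DL1003, genotype h- Ofd2ΔKAN). The study reports that Ofd2 acts in vitro as a dioxygenase on histone H2A. Each strain was grown in rich YES medium at normal oxygen (20%) or held in hypoxia (below 1% oxygen) for 90 min. RNA of 2 independent experiments was pooled before labelling and each of the 4 conditions was measured on 1 array. There was thus no biological replicate and no test was possible. Every error given below is a technical spread, that of the ratios of single spots between the arrays compared. Each target carried 7 probes in each of 2 blocks of an array, which gave 14 spots for each member.

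The median spot intensity of the genes was 7529 in wt at normal oxygen, 7045 in wt in hypoxia and 6597 in Ofd2Δ at normal oxygen, but 4009 in Ofd2Δ in hypoxia. The array of Ofd2Δ in hypoxia was also scanned on a separate occasion. Its scan cannot be told apart from strain in hypoxia, nor from hypoxia within Ofd2Δ. Every hypoxia ratio of Ofd2Δ given below, and its comparison with that of wt, carries this limit. The 2 blocks of an array gave hypoxia ratios that differed, at the median over all targets, by 0.07 on the log2 scale in wt and by 0.15 in Ofd2Δ. No spot of either member reached 65000, the intensity counted as saturated.

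For cyc1 the raw intensity (lowest, median and highest of 14 spots) was 25834, 30474 and 39229 in wt at normal oxygen and 9831, 16280 and 19509 in wt in hypoxia. In Ofd2Δ it was 21970, 27910 and 35469 at normal oxygen and 5206, 6432 and 9508 in hypoxia. In each strain the brightest spot in hypoxia was dimmer than the dimmest spot at normal oxygen. Set against the median of its own array, the median cyc1 spot stood at 4.05 in wt and 4.23 in Ofd2Δ at normal oxygen, and at 2.31 and 1.60 in hypoxia.

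After background correction, quantile normalisation of the 4 arrays and median polish of the probes, the cyc1 level in blocks 1 and 2 was as follows. In wt it was 25092 and 26694 at normal oxygen and 13428 and 14751 in hypoxia. In Ofd2Δ it was 25769 and 24185 at normal oxygen and 11707 and 11509 in hypoxia. Both blocks in hypoxia lay below both blocks at normal oxygen in each strain.

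The hypoxia ratio of cyc1 (hypoxia over normal oxygen, mean of the block ratios) was 0.544 in wt, from 0.535 and 0.553 in the blocks. It was 0.465 in Ofd2Δ, from 0.454 and 0.476. The spot ratios had an SD of 0.20 in wt and 0.32 in Ofd2Δ on the log2 scale, and all 14 lay below 1 in each strain. By the study's 2-fold limit (a ratio of 0.5 or less) cyc1 was counted as lower in Ofd2Δ and not in wt. As normalised by quantiles, the strains stood on either side of that limit by less than the spread between spots. The Ofd2Δ ratio depended on the scaling and lay further below the limit without quantile normalisation. It was 0.377 with median scaling and 0.379 from the median raw spot over the array median. Over all targets 0.64% were at least 2-fold lower in wt and 0.981% in Ofd2Δ. In order of their ratios cyc1 was 46 of 4997 in wt and 40 of 4997 in Ofd2Δ.

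**Figure D1:**
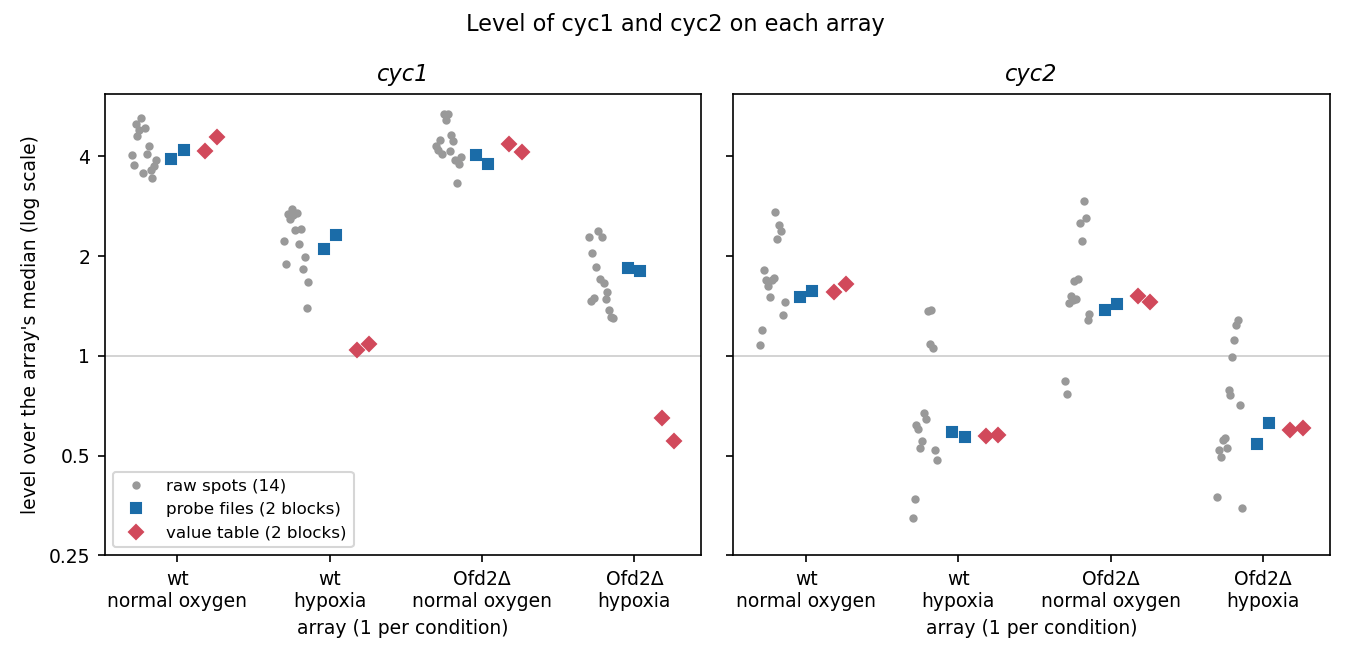
Level of cyc1 (left) and cyc2 (right) on each of the 4 arrays, divided by the median of that array (log scale), for the 14 raw spots (grey, over the median raw gene spot), the normalised level of each block from the probe files (blue squares) and each block of the deposited value table (red diamonds). For cyc1 in hypoxia the red diamonds lie below every raw spot, while for cyc2 they lie within the range of the spots.

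The 7 probes of cyc1 began between bases 9 and 275 of the target, and 5 of them began so close together that these 60-base probes overlapped and were not independent. In wt the probe ratios ran from 0.402 at base 275 to 0.614 at base 33, and the other 5 lay between 0.531 and 0.552. In Ofd2Δ they ran from 0.386 at base 275 to 0.543 at base 9. The probe nearest the 3′ end of the target was thus the lowest in both strains, and leaving out any one probe kept the ratio between 0.533 and 0.553 in wt and between 0.436 and 0.475 in Ofd2Δ.

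Between the strains cyc1 differed less than between the oxygen conditions by the probe files. At normal oxygen the level in Ofd2Δ was 0.966 of that in wt (1.03 in block 1, 0.906 in block 2 and 1.05 with median scaling, so without a settled direction), and in hypoxia it was 0.826. The Ofd2Δ hypoxia ratio over the wt ratio was 0.855, with a spot SD of 0.35 on the log2 scale, and it was below 1 in 9 of 14 spots. As normalised by quantiles this quotient did not pass the 1.5-fold limit, which 0.66% of targets passed downwards.

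The series also holds a table of normalised values for the same 4 arrays, with a value for each block. In that table cyc1 was 22568 and 24908 in wt at normal oxygen and 5678 and 5904 in hypoxia. In Ofd2Δ it was 23426 and 22206 at normal oxygen and 3727 and 3173 in hypoxia. The values at normal oxygen lay near those from the probe files, and the values in hypoxia lay well below them.

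The cyc1 hypoxia ratio in the value table was 0.244 in wt and 0.151 in Ofd2Δ, at place 1 as the lowest of all 4997 targets in each strain. Of all targets in it, 0.58% were at least 2-fold lower in wt and 0.841% in Ofd2Δ. The quotient of the strains was 0.618, past the 1.5-fold limit that 0.54% of targets passed downwards, and the level in Ofd2Δ in hypoxia was 0.597 of that in wt. In wt cyc1 passed the 2-fold limit by the value table and under none of the settings tried on the probe files. The quotient of the strains depended on the scaling as well as on the source. With median scaling of the probe files it was 0.696, and from the median raw spot over the array median it was 0.664, just past the 1.5-fold limit.

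The table's cyc1 ratio was 0.449 of the ratio from the probe files in wt, a difference of -1.16 on the log2 scale. No other target had so large a downward difference in wt, where 90% of targets fell between -0.08 and 0.07. In Ofd2Δ the difference was -1.62 and 2 targets lay lower, with 90% of targets between -0.42 and 0.42. A difference beyond 0.5 in either direction, a limit set after the values were seen, occurred for 25 of 4997 targets in wt and 329 in Ofd2Δ.

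The difference arose in the hypoxia arrays. Divided by the median of the array, cyc1 was 4.06 by the probe files and 4.35 by the table in wt at normal oxygen, and 3.93 and 4.24 in Ofd2Δ. In hypoxia it was 2.20 and 1.06 in wt, and 1.81 and 0.601 in Ofd2Δ. The dimmest raw cyc1 spot stood at 1.40 times the median raw gene spot in wt in hypoxia and at 1.30 times it in Ofd2Δ, above the table's value in each case. Over the background, scaling and summary settings tried on the probe files the wt ratio stayed between 0.517 and 0.571. The cause of the difference was not tested.

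**Figure D2:**
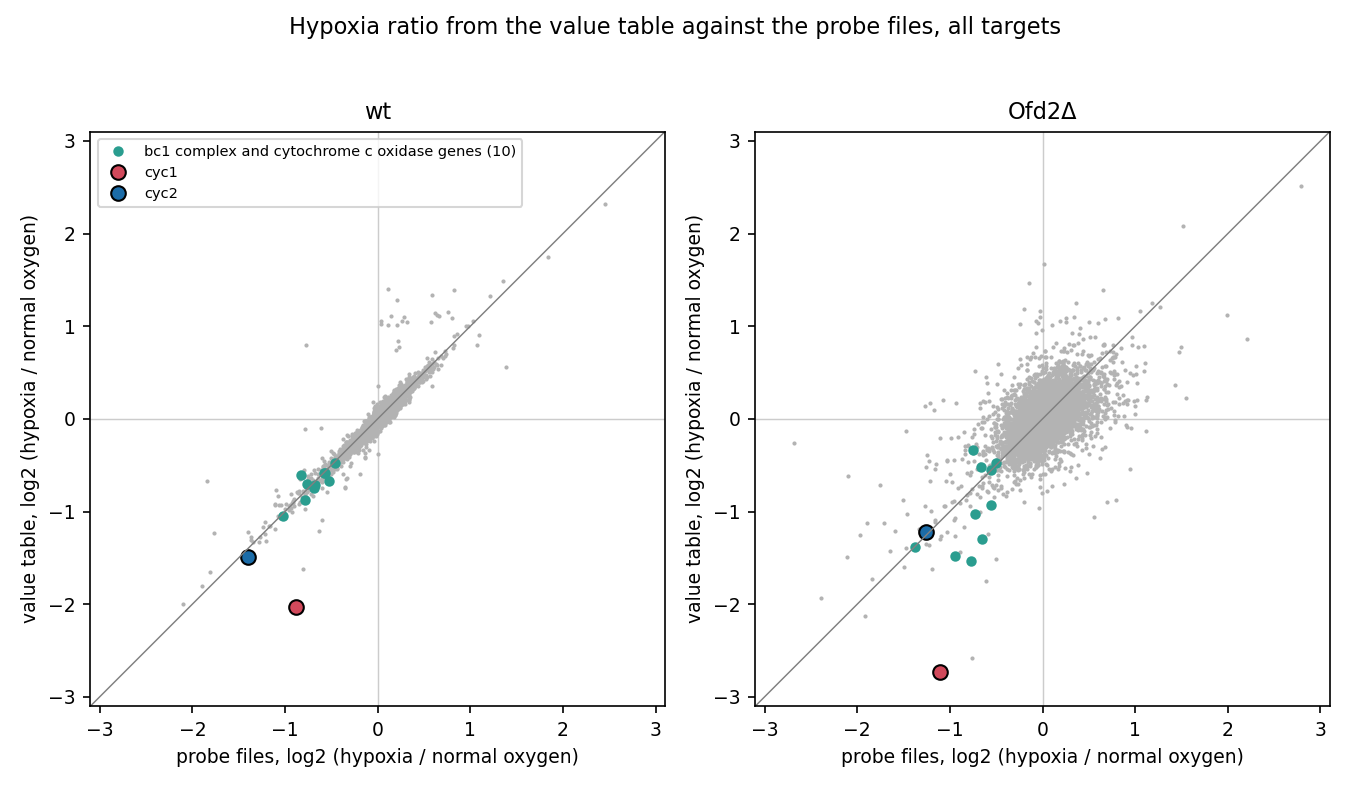
Hypoxia ratio of each of the 4997 targets from the value table (vertical axis) against the ratio from the probe files (horizontal axis), both as log2, in wt (left) and Ofd2Δ (right), with the line of equality. cyc1 (red) lies at -0.88 and -2.03 in wt, below all other targets relative to the line, and cyc2 (blue) lies near the line in both strains.

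**Figure D3:**
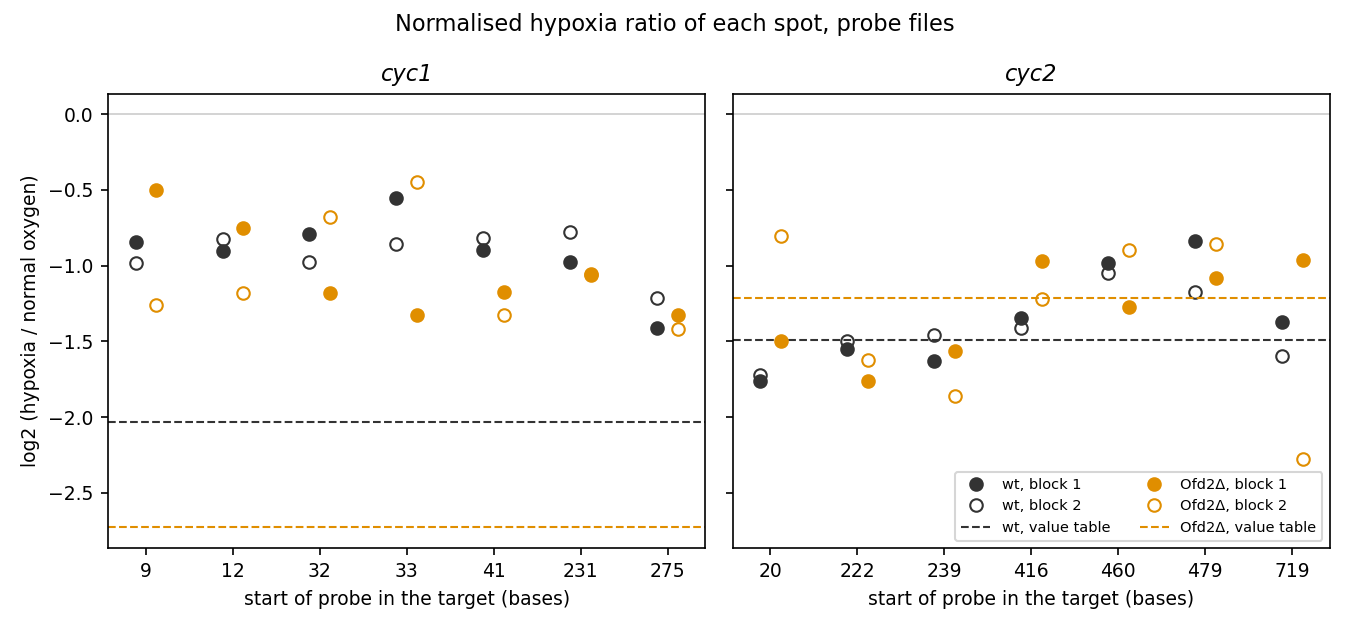
Normalised hypoxia ratio (log2) of each of the 14 spots of cyc1 (left) and cyc2 (right) by the start of the probe in the target, in wt (black) and Ofd2Δ (orange), with block 1 filled and block 2 open; dashed lines give the value table's ratio. All cyc1 spots lie above both dashed lines, and the cyc2 spots lie on either side of theirs.

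For cyc2 the raw intensity (lowest, median and highest of 14 spots) was 8094, 12739 and 20505 in wt at normal oxygen and 2290, 4296 and 9677 in hypoxia. In Ofd2Δ it was 5051, 9888 and 19280 at normal oxygen and 1391, 2552 and 5144 in hypoxia. The ranges overlapped between the conditions, unlike those of cyc1. The dimmest of these spots was 8.81 times the 95th percentile of the random control probes on its array.

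The normalised cyc2 level in blocks 1 and 2 was 9555 and 9982 in wt at normal oxygen and 3759 and 3641 in hypoxia. In Ofd2Δ it was 8723 and 9102 at normal oxygen and 3472 and 4012 in hypoxia. The blocks of the conditions did not overlap in either strain. The hypoxia ratio of cyc2 was 0.379 in wt (0.393 and 0.365 in the blocks, spot SD 0.28 on the log2 scale) and 0.419 in Ofd2Δ (0.398 and 0.441, SD 0.44). It was below 1 in 14 of 14 spots of each strain and at most 0.5 in 12 spots in wt and 9 in Ofd2Δ.

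The cyc2 probes began between bases 20 and 719 and were spread more widely than those of cyc1. In wt the probe ratios ran from 0.299 at base 20 to 0.498 at base 479. In Ofd2Δ they ran from 0.305 at base 239 to 0.510 at base 479. The probe at base 20 gave 0.299 for wt and 0.450 for Ofd2Δ, and the 2 probes at bases 222 and 239 lay between 0.305 and 0.347 in both strains.

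By the value table the cyc2 ratio was 0.355 for wt and 0.430 for Ofd2Δ, within the spread between spots of the values from the probe files. In order of their ratios cyc2 was 8 of 4997 in wt by the probe files and 6 of 4997 by the table, and 25 in Ofd2Δ by both. The Ofd2Δ ratio over the wt ratio was 1.11 by the probe files and 1.21 by the table, above 1 where that of cyc1 was below it. With a spot SD of 0.41 on the log2 scale and 6 of 14 spots below 1, this quotient was within the spread between spots.

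The partners that hand electrons to cytochrome c and take them from it had ratios below 1 in both strains. Of the bc1 complex 6 of 9 listed genes were named on the array, and their median by the probe files was 0.60 for wt and 0.591 for Ofd2Δ, against 1.02 over all targets. At least 1.5-fold lower were 5 of these 6 in wt and 6 in Ofd2Δ, where 2.28% and 2.8% of all targets were. That share of all targets in Ofd2Δ was 7.0% with median scaling and 4.32% with the median of probes. The lowest was qcr7, at 0.491 and 0.386, and the highest was qcr2, at 0.697 in wt and 0.635 in Ofd2Δ. The others were qcr1 (0.624 and 0.601), qcr8 (0.579 and 0.587), qcr9 (0.564 and 0.595) and qcr10 (0.620 and 0.520). Of these genes qcr8 and qcr10 were named only through the lists chosen on these arrays. Their low ratios, and their part in the counts and the median, support nothing.

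Of cytochrome c oxidase 4 of 8 listed genes were named, and their median was 0.671 for wt and 0.680 for Ofd2Δ. At least 1.5-fold lower was 1 of the 4, cox9 in wt and cox12 in Ofd2Δ. The subunit genes were cox5 (0.672 in wt and 0.682 in Ofd2Δ), cox9 (0.587 and 0.678), cox12 (0.724 and 0.631) and cox13 (0.671 and 0.705). Among these 10 genes of both complexes only qcr7 had a lower ratio than cyc1 by the probe files, in each strain, and for cyc2 none was lower in wt and qcr7 alone in Ofd2Δ. In the value table the bc1 median was 0.603 in wt and 0.395 in Ofd2Δ. At least 1.5-fold lower there were 6 of the 6 bc1 genes in wt and 5 in Ofd2Δ, where 2.26% and 2.38% of all targets were. At least 2-fold lower there were 1 of the 6 in wt and 5 in Ofd2Δ, where 0.58% and 0.841% of all targets were. Of those 5 in Ofd2Δ, qcr8 (0.3455) and qcr10 (0.3597) were named only through lists chosen by such ratios. Their part in these counts and in the median was thus fixed in advance and supports nothing. By the probe files 1 of the 6 was at least 2-fold lower in each strain, where 0.64% and 0.981% of all targets were. In the value table no gene of either complex was as low as cyc1 in either strain.

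**Figure D4:**
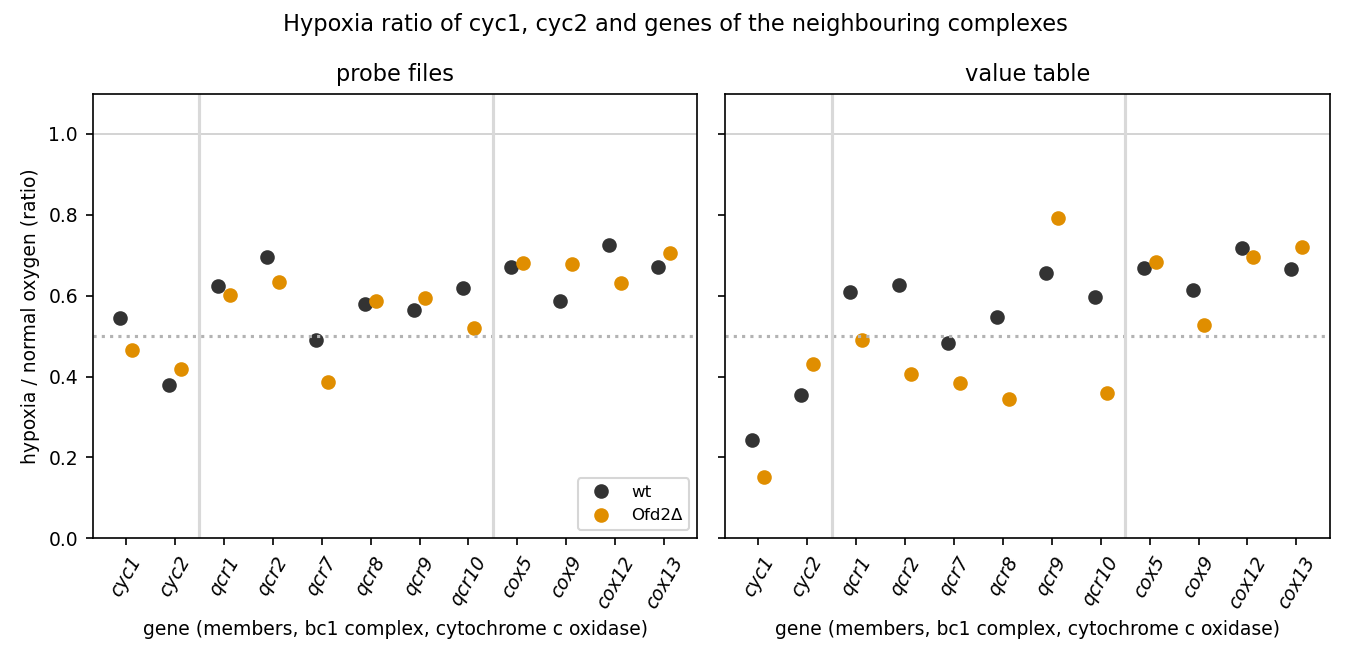
Hypoxia ratio (hypoxia over normal oxygen) of cyc1, cyc2, 6 genes of the bc1 complex and 4 of cytochrome c oxidase in wt (black) and Ofd2Δ (orange), from the probe files (left) and the value table (right), with the 2-fold limit dotted. By the probe files cyc1 lies at 0.544 and 0.465, with qcr7 alone lower in each strain, and by the table at 0.244 and 0.151, below all 10.

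Other named genes that bear on heme and cytochrome c did not share the low ratios. Of the genes of heme synthesis 3 of 8 were named, and by the probe files hem13, coproporphyrinogen oxidase, stood at 1.77 in wt and 1.57 in Ofd2Δ. Of these genes hem13 was named only through the lists chosen on these arrays, so its ratio is a description and supports nothing. The ratios of hem12, uroporphyrinogen decarboxylase, were 1.12 and 0.946, and those of hem15, ferrochelatase, which inserts the iron, were 1.08 and 0.904. In the value table hem13 was 2.62 in both strains and hem15 was 2.65 and 2.76, so that these genes also differed between the sources. Of 17 genes for assembly of cytochrome c oxidase 4 were named, between 0.933 (cox19) and 1.11 (cox18) in wt and between 0.898 (cox19) and 1.12 (sco1) in Ofd2Δ.

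Of the CCAAT-binding complex, which is known to control genes of respiration in yeasts, only php2 was named, at 1.36 in both strains. The hypoxia transcription factor gene sre1 was at 1.51 in wt and 1.29 in Ofd2Δ by the probe files and at 2.53 and 2.37 by the table, while its regulator nro1 was at 1.06 and 1.07 by the probe files. Of the import genes tom7 and tom40 were named, between 0.967 and 1.05 over both strains. None of 4 other listed partners of cytochrome c was named.

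On chromosome III the 3 nearest annotated genes on each side of cyc1 were all named. On one side SPCC191.06 was at 0.745 in wt and 0.643 in Ofd2Δ, SPCC191.05c at 0.702 and 0.751, and SPCC191.04c at 0.379 and 0.664. On the other side lto1 was at 1.01 and 1.11, gst1 at 1.15 and 1.19, and SPCC191.10 at 0.789 and 0.888. Mean levels were 750 for SPCC191.06, 2028 for SPCC191.05c and 629 for SPCC191.04c. On the other side they were 4753 for lto1, 251 for gst1 and 40.1 for SPCC191.10. The ratios of cyc1 were not shared on the lto1 side, but gst1 and SPCC191.10 were dim targets there, which leaves lto1. SPCC191.04c was also dim. None of the 6 nearest genes of cyc2 was named.

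Among 1241 named targets above the 25th percentile of level, the profiles over the 4 arrays closest to that of cyc1 by the probe files were those of SPCC1450.19, nce103, oca2, SPCC1840.06c and SPBC1703.13c. Their root mean square distance was 0.06 to 0.07 on the log2 scale after centring each profile. The closest to cyc2 were SPBC11C11.06c, SPAC977.17, mic26, pmp20 and qcr7, at 0.06 to 0.14. By the table the closest to cyc1 was nde1, at 0.21. With 4 arrays such nearness describes these arrays only.

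**Figure D5:**
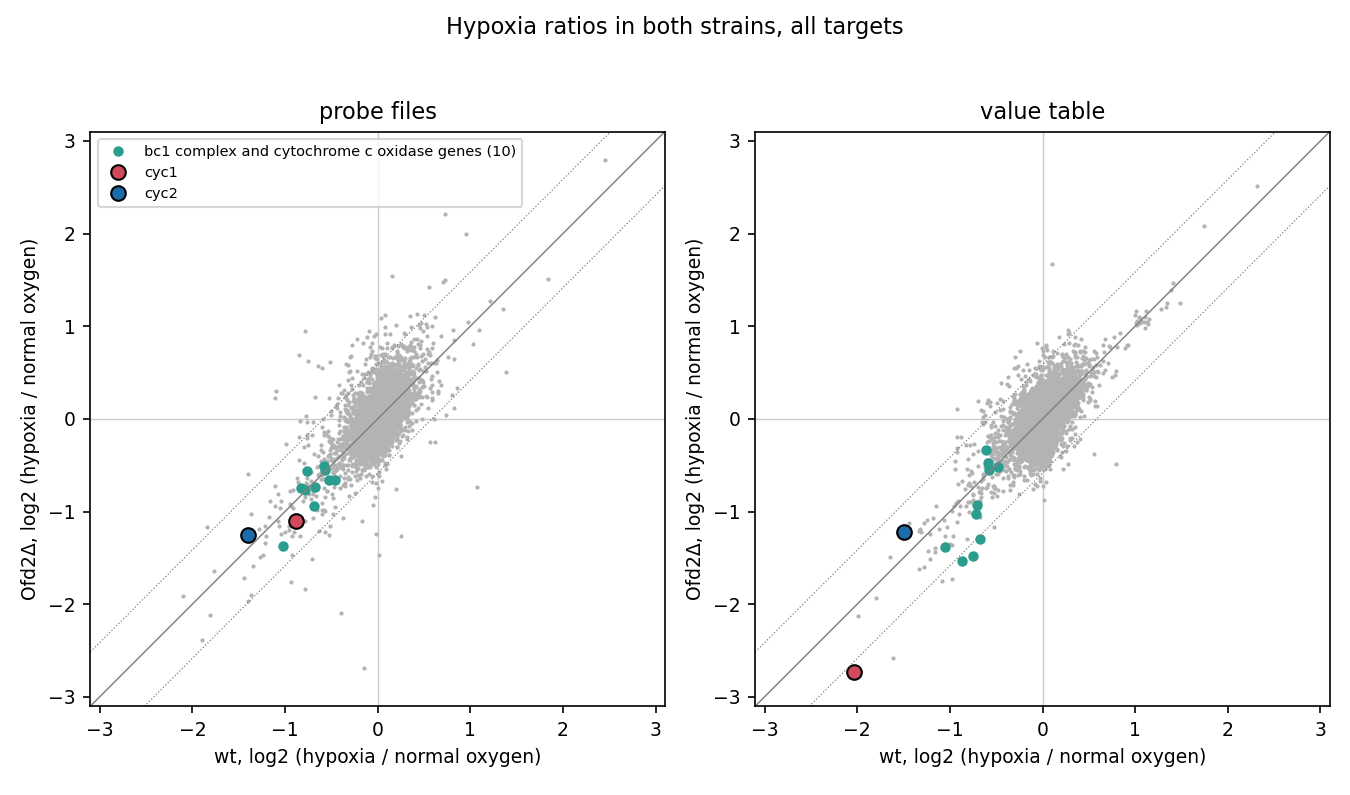
Hypoxia ratio (log2) of each of the 4997 targets in Ofd2Δ (vertical axis) against wt (horizontal axis) from the probe files (left) and the value table (right), with the line of equality and, dotted, the 1.5-fold limits. cyc1 (red) lies within the limits by the probe files and just past the lower one by the table, and cyc2 (blue) lies within them in both.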

How the data were processed

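Total RNA was labelled with Cy3 and hybridised to NimbleGen arrays by the array maker. The authors deposited a probe file for each array with the raw spot intensity, extracted with NimbleScan 2.4.31 per the file headers, and a table of normalised intensity values for which the processing notes name RMA; its parameters and the genome build are not given in the sources used here. The value table's targets were put in order by matching it to values held for 1694 targets, all of which were equal.

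From the probe files, the RMA steps (convolution background, quantile normalisation of all 4 arrays, median polish for each target and block) were run in R 4.3.3 with limma 3.58.1, and the rest in Python 3.11.15. The background was fitted on 69954 gene spots and 2083 random control spots of each array. It was first fitted on the gene spots alone; known folds in simulated data came out too large that way, so the control spots were added, after the members' values under the first fit had been seen. Both are given in the closing section. With the control spots the steps recovered the simulated folds.

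A ratio is the mean of the 2 block ratios, and its error is the SD of log2 ratios over 14 spots, which is technical. The study's 2-fold and 1.5-fold limits were used, with no test. A usable name was held for 1644 of 4997 targets, of which 1541 were found in the RefSeq table and 1298 had a symbol there, and 44 were named only through lists chosen on these arrays. The text names both members, all named genes of the partner, maturation and CCAAT lists, the highest and lowest of the other lists, 3 neighbours on each side and the 5 profiles most alike; hem12, hem15 and the regulators sre1 and nro1 complete short lists. The members and lists were chosen with earlier results of these data known. The alternatives were other backgrounds, scalings and probe summaries, saturated probes left out, single blocks, their geometric mean, single probes left out, the value table, a filter on dim targets and, added after seeing the data, the raw spot medians.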

Additional observations from a re-analysis of the deposited data

How the results depend on the processing

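No paired analysis was possible because each condition had 1 array. The hypoxia ratios of both members were below 1, and the quotient of the strains below 1 for cyc1 and above 1 for cyc2, under every setting run. The levels of the strains near 1 changed sides: Ofd2Δ over wt for cyc1 at normal oxygen, 0.966, was 1.05 with median scaling and 1.03 in block 1, and for cyc2 in hypoxia, 1.01, it was 0.936 with the median of probes, 0.924 in block 1 and as low as 0.935 with 1 probe left out. The value table moved the cyc1 hypoxia ratio to 0.244 in wt and 0.151 in Ofd2Δ, the quotient of the strains to 0.618 and the Ofd2Δ level over wt in hypoxia to 0.597. The median raw spot over the array median, added after seeing the data, moved the cyc1 quotient to 0.664, and median scaling gave 0.696. The cyc1 hypoxia ratio in Ofd2Δ was 0.379 from the median raw spot and 0.377 with median scaling. Quantile normalisation within each strain leaves the strains on different scales, and it moved the Ofd2Δ level over wt for cyc1 to 0.678 at normal oxygen and 0.579 in hypoxia, and for cyc2 to 0.647 and 0.742. The background fit on all spots was itself adopted after the values from a fit on the gene spots alone had been seen. That first fit gave cyc1 ratios of 0.517 in wt and 0.426 in Ofd2Δ and cyc2 ratios of 0.325 and 0.370, with quotients of 0.823 and 1.14, all within the spread between spots and on the same side of the 2-fold limit. Without targets under the 25th percentile of level the counts at least 2-fold lower were 11 in wt and 20 in Ofd2Δ, against 32 and 49, and those at least 1.5-fold lower were 49 and 72, against 114 and 140. The last count in Ofd2Δ was 350 with median scaling and 216 with the median of probes. Leaving out 1 probe at a time kept the quotient between 0.813 and 0.885 for cyc1 and between 1.05 and 1.21 for cyc2. The number of arrays limits the precision, and pooled RNA from 2 experiments hides the spread between cultures.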
